A study of Mus musculus with 16 samples.

Results

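Transcripts of Eda2r, Tnfrsf12a, Map3k14, Nfkb2 and Relb, which encode receptors, a kinase and transcription factor subunits of the noncanonical NF-κB pathway, were examined in mouse gastrocnemius muscle. The 5 genes were chosen by symbol, because the EDA2R receptor pathway is a reported driver of cancer cachexia, with earlier results of these data known. All 5 were found among the 35415 genes of the tables, and all 5 were among the 14749 genes with enough counts to be tested.

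The study asked how aerobic training alters muscle in mice that carry a colon carcinoma. All animals were wild-type male BALB/c mice, 8 weeks old when bought, and 4 mice from each group of 12 were sequenced, as 1 library per mouse. C mice received saline and no training, E mice received saline and ran on a treadmill for 4 weeks, T mice received CT26 cells and no training, and TE mice received CT26 cells and the same training, which began the day after the inoculation. The untrained C and T mice stood on a treadmill that did not move, and all 4 groups had pentobarbital anesthesia at the injection. CT26 is a single mouse colon carcinoma line that was placed under the skin of the left hind limb in this model, and the side of the gastrocnemius that was sequenced is not given in the sources used here. A library is named below by its group and replicate, so that T3 is the third T mouse.

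EDA2R is a receptor for the ectodysplasin isoform EDA-A2, and TNFRSF12A, also called Fn14, is the receptor for the cytokine TWEAK, which Tnfsf12 encodes. In resting cells a complex of TRAF3, TRAF2 and cIAP proteins marks the kinase NIK, the product of Map3k14, for degradation. When the receptors bind their ligands, NIK accumulates and activates IKKα, the p100 protein made from Nfkb2 is trimmed to p52, and p52 pairs with RelB in the nucleus. Denervated and injured muscle is known for a high level of Tnfrsf12a, and signaling by both receptors has been tied to loss of muscle mass. Much of the pathway is set by protein stability and processing, so transcript counts show neither NIK protein nor the conversion of p100 to p52, and they do not separate the EDA-A1 and EDA-A2 transcripts of Eda.

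Depth was even, with 35628211 to 37635741 counts per library. The tissue label was checked with 8 genes of the muscle fiber, none of which was at 0 and whose summed level was 51946 to 60501 FPKM, a level per gene length and per library total. B cell genes were not spread evenly. The summed level of 7 such genes, all of them above 0 in TE4, was 32.5 FPKM in TE4, 10.4 in C3, 8.29 in E1, 3.58 in E2 and 3.30 in C2, and 0.105 to 0.766 FPKM in the other libraries. Glycam1, a marker of lymph node venules, was at 41.7 FPKM in TE4 and was listed at 0 in all 4 T libraries. The C and TE ranges of Glycam1 overlapped that of T, so a level of 0 was not particular to T. These are whole pieces of tissue, in which fewer cells of a type and less RNA per cell cannot be told apart. The range of neutrophil genes was 14.7 to 82.1 FPKM over 7 genes in T and 1.30 to 7.25 in C.

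The regulatory sequences that bear on these genes are the κB sites, to which NF-κB dimers bind. Windows of 250 bases before annotated transcript starts, from RefSeq (GRCm38.p6), were found for 4 of the 5 genes, 6 windows in all, and were placed on GRCm39 by their sequence. A 10-letter κB motif, searched on both strands, occurred in all 3 windows of Nfkb2 and in none of the windows of Eda2r, Tnfrsf12a and Map3k14, while 7.28% of 32544 windows of all genes held it. The Nfkb2 matches are shown because this gene is a known target of NF-κB. They are on the plus strand of GRCm39, read 5′ to 3′, with the matching bases in capitals. In the first sequence a pair of matches overlap, so that the capitals run over 11 bases.
Nfkb2 site 1, chr19:46293128-46293157: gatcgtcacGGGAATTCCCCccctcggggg
Nfkb2 site 2, chr19:46293155-46293175: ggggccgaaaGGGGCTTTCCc
Nfkb2 site 3, chr19:46293888-46293917: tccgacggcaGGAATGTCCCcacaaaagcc
Nfkb2 site 4, chr19:46294134-46294163: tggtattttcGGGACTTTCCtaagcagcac
The capitals of sites 1, 2 and 4 lie in exons of some Nfkb2 transcripts in the GENCODE annotation, and those of site 3 lie in an intron of some of them. Those of sites 1 to 3 also lie in exons of the long noncoding gene 4833438C02Rik. The motif TGANTCA, which AP-1 factors bind, occurred in 1 of these windows and in 6.73% of all windows. The motif TTCNNNGAA, which STAT factors bind, also occurred in 1 of them and in 7.04% of all windows. The CArG box, which serum response factor binds, was in none of the 6 windows and in 1.48% of all. A match describes letters only, and the data hold no measurement of binding.

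Of the receptors, Eda2r had its highest levels in 2 tumor-bearing mice, 1 of them trained. Eda2r (ENSMUSG00000034457.12, GRCm39 chrX:96320270-96420847, minus strand) was measured at 3.08, 2.59, 3.07 and 2.48 FPKM in C1 to C4. In T1 to T4 it was at 3.92, 3.54, 5.97 and 2.93 FPKM. Thus 3 of the 4 T mice lay above the highest C mouse, and T4 lay within the C range. The trained mice without tumor, E1 to E4, were at 3.93, 2.96, 3.35 and 2.84 FPKM. The TE mice were at 6.45, 2.94, 3.13 and 2.35 FPKM, so that TE1 was the highest of all 16 libraries and TE4 the lowest. All 4 group ranges overlapped.

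The group means of Eda2r were 4.09 ± 1.32 FPKM in T, 3.72 ± 1.85 in TE, 3.27 ± 0.493 in E and 2.81 ± 0.314 in C (SD, n = 4 each). The fold change between T and C was 1.48 (95% confidence interval 1.03 to 2.13), and with edgeR's quasi-likelihood test it did not pass Benjamini-Hochberg adjustment over all tested genes (log2 fold change 0.57, SE 0.25, unadjusted p = 0.0375, adjusted p = 0.314). Leaving out T3 lowered the estimate to 0.34 on the log2 scale, with an adjusted p of up to 0.670 over all alternatives. Neighbors in the order of means differed by less than the larger SD of the pair. Between TE and E the log2 fold change of Eda2r was 0.23 (SE 0.25, edgeR's quasi-likelihood test, adjusted p = 0.820), and this value rested on TE1, since without that mouse it was -0.16.

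Tnfrsf12a had the widest spread of the 5 genes. It was at 10.8, 17.1, 7.89 and 10.3 FPKM in C1 to C4, and at 35.4, 13.0, 58.9 and 23.0 FPKM in T1 to T4. T2 was therefore inside the C range and the other T mice were above it. In E1 to E4 it was at 34.3, 39.2, 10.4 and 22.8 FPKM, with E3 inside the C range and the other E mice above it. In TE1 to TE4 it was at 35.8, 11.7, 21.6 and 13.2 FPKM, with TE2 and TE4 inside the C range. The highest level of any library, in T3, was 7.46 times the lowest, in C3. The deposited counts behind these values were 277 to 2135 per library.

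The group means of Tnfrsf12a were 32.6 ± 19.8 FPKM in T, 26.7 ± 12.9 in E, 20.6 ± 11.0 in TE and 11.5 ± 3.92 in C (SD, n = 4 each). The T group was 2.87-fold above the C group (95% confidence interval 1.47 to 5.59), and edgeR's quasi-likelihood test gave a log2 fold change of 1.52 (SE 0.46), an unadjusted p of 0.00389 and an adjusted p of 0.131. The E group was 2.26-fold above the C group (interval 1.17 to 4.40), with an adjusted p of 0.266 in the same edgeR test. Fibroblast and tendon genes moved with training in the tumor-free mice. The summed level of 6 such genes, none at 0 in any library, was 429 to 541 FPKM in E, 285 to 385 in C, 243 to 384 in T and 299 to 337 in TE. Between E and C all 6 were higher at an unadjusted p under 0.05 in edgeR's quasi-likelihood test, beside 14.2% of all tested genes in either direction. Of the 6, 2 were called, beside 0.0881%. Between TE and E all 6 were lower at that p, beside 9.23%, and 2 were called, beside 0.231%. The calls between E and C depended on single mice, since 0 genes were called there without C1, without C3 or without E4. Endothelial genes were also higher in E, at 137 to 151 FPKM over 4 genes against 102 to 133 in C, and 0 of these 4 were called. The part of these genes in the Tnfrsf12a values was not tested. Between TE and T the log2 fold change of Tnfrsf12a was -0.68 (interval -1.61 to 0.26), and it was -0.25 without T3 and -1.07 without TE1. Between TE and E it was -0.33 (interval -1.27 to 0.60), and it was -0.08 without E2 and -0.73 without TE1. The interaction, which is the change with training in tumor-bearing mice minus that in tumor-free mice, was -1.85 on the log2 scale (interval -3.19 to -0.52). It had an unadjusted p of 0.00942 and an adjusted p of 0.438 with edgeR's quasi-likelihood test, so it did not pass either. Without T2 the T and C groups differed by 1.78 on the log2 scale and the adjusted p of edgeR's test was 0.0463. Without T3 the difference was 1.09 and the adjusted p was 0.383, the highest over all alternatives.

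**Figure D1:**
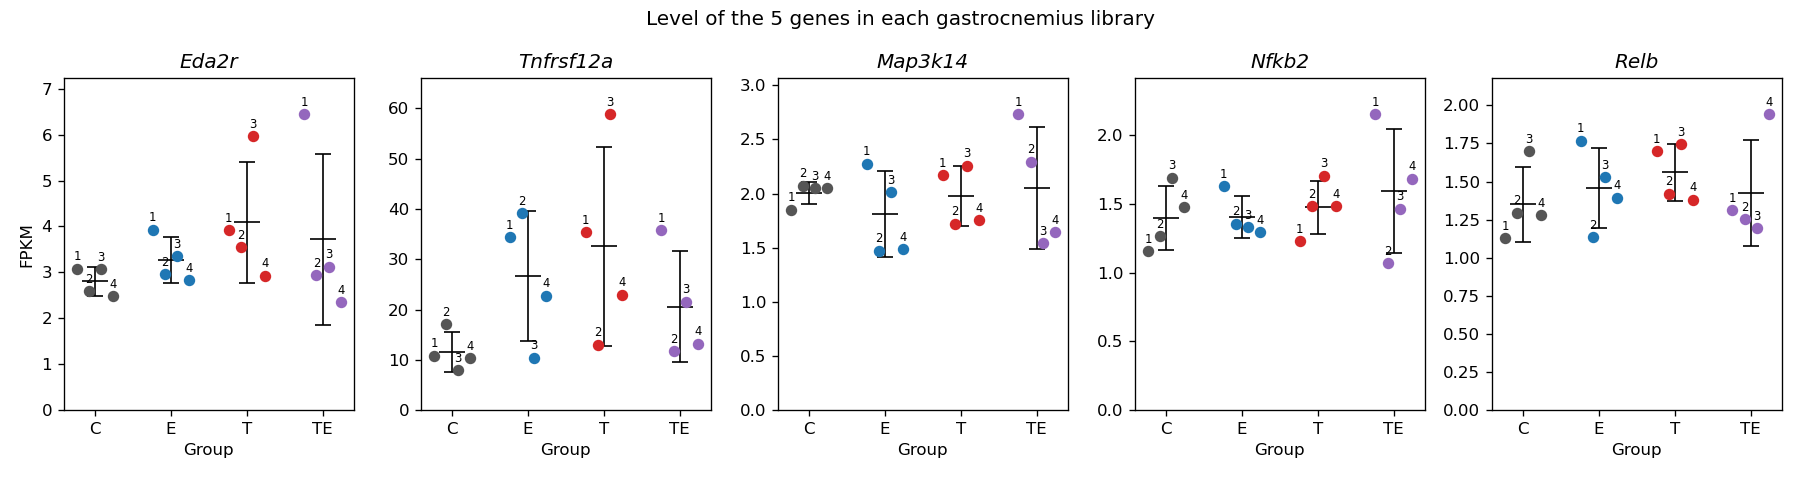
FPKM of each of the 5 genes (vertical axes from 0) in the C, E, T and TE groups, with 1 numbered point per library, the number being the replicate, and with a black bar for the mean and SD of 4 mice. The plot shows Eda2r high in T3 and TE1, at 5.97 and 6.45 FPKM, and Tnfrsf12a ranging from 7.89 to 58.9 FPKM, while Map3k14, Nfkb2 and Relb stay between 1.07 and 2.74 FPKM.

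Tnfrsf12a (ENSMUSG00000023905.17, GRCm39 chr17:23894416-23896468, minus strand) shares its exons with a neighbor. All 1965 of its exonic bases in the GENCODE annotation overlap exons of Hcfc1r1 on the other strand, and the strand setting of the authors' counting is not given in the sources used here. Hcfc1r1 varied less, from 2045 to 2844 counts over the 16 libraries, a 1.39-fold range. Its log2 fold change between T and C was 0.12 (edgeR's quasi-likelihood test, adjusted p = 0.617). The part of this overlap in the Tnfrsf12a counts was not tested.

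Map3k14, the gene of the kinase NIK, was nearly level over the groups. It was at 1.85, 2.07, 2.05 and 2.05 FPKM in C1 to C4 and at 2.17, 1.72, 2.26 and 1.75 FPKM in T1 to T4. The T mice fell on both sides of the C mice. E1 to E4 had 2.28, 1.47, 2.01 and 1.49 FPKM, and TE1 to TE4 had 2.74, 2.29, 1.54 and 1.65 FPKM. TE1 was thus the highest library for Map3k14, as it was for Eda2r, and E2 the lowest. The log2 fold change between T and C was 0.01, with a 95% confidence interval of -0.36 to 0.37 that reaches from 0.779 to 1.29 times the C level (edgeR's quasi-likelihood test, adjusted p = 0.995). Map3k14 (ENSMUSG00000020941.9) lies at GRCm39 chr11:103110577-103158298 on the minus strand, and 597 of its 6801 exonic bases overlap long noncoding genes.

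The transcription factor subunits were at similar levels per length. Nfkb2, which encodes p100, was at 1.15, 1.27, 1.69 and 1.48 FPKM in C1 to C4 and at 1.23, 1.48, 1.70 and 1.48 FPKM in T1 to T4. E1 to E4 had 1.63, 1.36, 1.33 and 1.29 FPKM, and TE1 to TE4 had 2.15, 1.07, 1.46 and 1.68 FPKM. TE1 and TE2 were the highest and the lowest of the 16 libraries, so the widest spread was among the trained tumor-bearing mice. The T and C groups overlapped almost completely, with a log2 fold change of 0.10 (interval -0.23 to 0.44, edgeR's quasi-likelihood test, adjusted p = 0.812). Nfkb2 (ENSMUSG00000025225.17, GRCm39 chr19:46292759-46303812, plus strand) shares 3014 of its 7901 exonic bases with Psd and a long noncoding gene on the other strand, which had at most 10 and 56 counts in any library. The FPKM values of the members rest on gene lengths that differ from the exonic bases in GENCODE. They imply 11300 bases for Nfkb2 against 7901 and 6167 for Relb against 5085, so both levels would be higher on the GENCODE length. They imply 965 bases for Tnfrsf12a against 1965, 4173 for Map3k14 against 6801 and 5819 for Eda2r against 7498, so these levels would be lower. Each gene has 1 length in all libraries, so comparisons between libraries do not depend on it.

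Relb, which encodes the partner of p52, was at 1.13, 1.30, 1.70 and 1.28 FPKM in C1 to C4 and at 1.70, 1.42, 1.74 and 1.38 FPKM in T1 to T4. Every T mouse was above 3 of the C mice, but C3 lay among the T mice. E1 to E4 had 1.77, 1.13, 1.53 and 1.40 FPKM, and TE1 to TE4 had 1.31, 1.25, 1.19 and 1.94 FPKM. TE4, the library with the most B cell transcripts, was the highest for Relb, and E1 and C3, which followed it in B cell transcripts, held places 2 and 5. E2 and C2, next in B cell transcripts, held places 15 and 11 for Relb. The log2 fold change of Relb between T and C was 0.24 (interval -0.10 to 0.58, edgeR's quasi-likelihood test, adjusted p = 0.534). Without TE4, C3 and E1 it was 0.35 (unadjusted p = 0.0126, adjusted p = 0.238 in the same edgeR test). Between TE and T it was -0.15 with all libraries and -0.32 without these 3 (adjusted p = 0.995 with edgeR). Relb (ENSMUSG00000002983.20, GRCm39 chr7:19339017-19363425, minus strand) shares no exonic base with another gene.

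**Figure D2:**
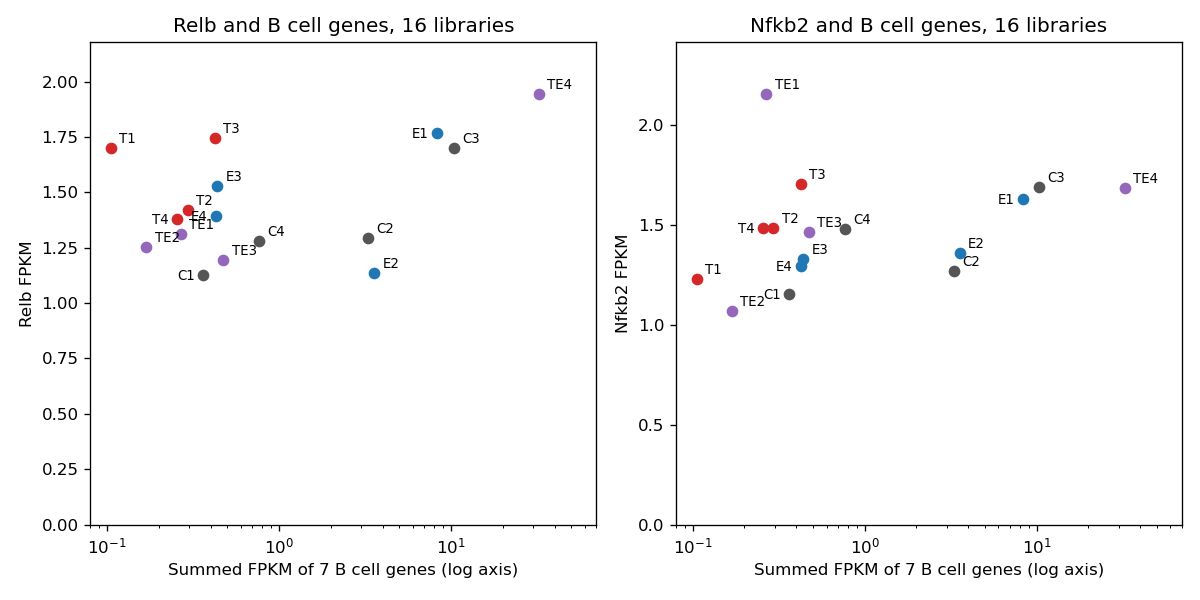
Relb (left) and Nfkb2 (right) in FPKM, on vertical axes from 0, against the summed FPKM of 7 B cell genes on a log axis, with 1 labeled point per library. Relb is highest in TE4, at 1.94 FPKM beside 32.5 FPKM of B cell genes, and T1 and T3 reach 1.70 and 1.74 FPKM with at most 0.424 FPKM of B cell genes.

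The part of these B cell transcripts in the Relb and Nfkb2 values was not tested. Among other genes of the pathway, Nfkbie, an inhibitor that NF-κB induces, was at 2.27 FPKM in TE4 and at most 0.977 FPKM elsewhere. It was also at 0.535 to 0.683 FPKM in the other TE mice, above the 0.402 to 0.471 FPKM of the T mice. Nfkbie was the 1 gene of 60 tested in the pathway lists that lay wholly higher in TE than in T, as did 1.49% of all tested genes (log2 fold change 1.20, adjusted p = 0.827 with edgeR). Birc3, which encodes a cIAP protein, was at 3.14 FPKM in TE4 and at most 2.03 elsewhere. Traf1 was at 0.880 FPKM in TE4 and at most 0.460 elsewhere. All 3 genes thus had their highest level in the library that stood apart.

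No member of the 5 passed the test in any comparison. With edgeR's quasi-likelihood test at an adjusted p under 0.05, 0 of 5 were called between T and C, where 0.678% of tested genes were called. The same count was 0 of 5 between TE and E (0.231% of tested genes), 0 of 5 between E and C (0.0881%), 0 of 5 between TE and T (0%) and 0 of 5 for the interaction (0%). DESeq2 and limma-voom with sample weights also called 0 of 5 in each. At an unadjusted p under 0.05, Tnfrsf12a and Eda2r passed between T and C, beside 14.2% of all tested genes. At that threshold Tnfrsf12a alone passed between E and C, beside 14.2%, and for the interaction, beside 9.21%. Between TE and E and between TE and T, 0 of 5 passed it, beside 9.23% and 5.88%. In no comparison did a member have FPKM ranges that did not overlap. Of all tested genes, 2.64% lay wholly higher and 4.21% wholly lower in T than in C, 1.17% and 5.56% in TE than in E, 6.28% and 2.39% in E than in C, and 1.49% and 0.976% in TE than in T. T vs C and E vs C share the C mice, and T vs C and TE vs T share the T mice, so the values of these comparisons are not independent of each other.

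**Figure D3:**
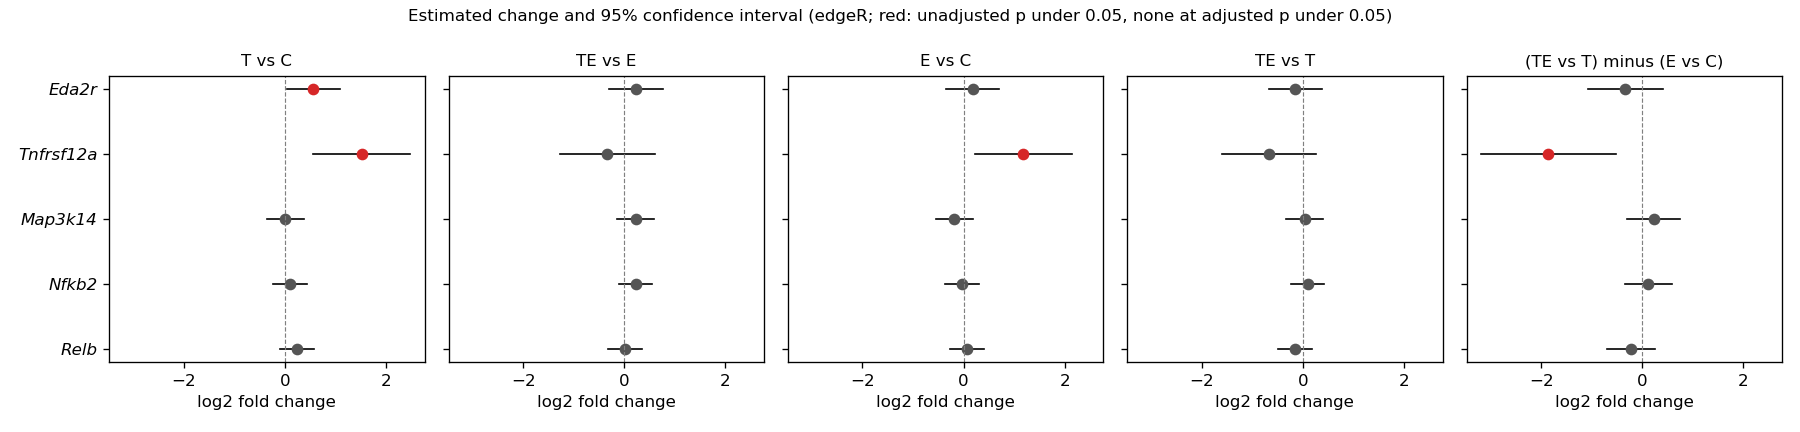
Estimated log2 fold change (points, horizontal axes) of each gene in the 5 comparisons, with 95% confidence intervals as lines, from the edgeR fit of 16 libraries. Red points have an unadjusted p under 0.05, namely Eda2r and Tnfrsf12a for T vs C and Tnfrsf12a for E vs C and the interaction, at 0.57, 1.52, 1.18 and -1.85, and no point passed after adjustment.

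The precision differed between the genes. The standard deviation of log2 values within groups was 0.77 for Tnfrsf12a, more than that of 93.2% of the tested genes, and 0.40 for Eda2r, more than 76.1%. For Map3k14, Nfkb2 and Relb it was 0.24 to 0.27, beside a median of 0.19 over all tested genes. The interval of the T vs C change accordingly ran from 0.56 to 2.48 for Tnfrsf12a, and was narrower for the other members.

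The members did not follow one shared order over the libraries. Across the 16 libraries Eda2r had a Pearson r of 0.64 with Tnfrsf12a, 0.62 with Map3k14 and 0.53 with Nfkb2, as a description of libraries that share their groups. Without T3 and TE1 these values were 0.41, 0.35 and -0.07, so the last of them rested on those mice. Nfkb2 and Relb had an r of 0.35 with all libraries and 0.52 without T3 and TE1. Relb had an r of 0.18 with Eda2r and 0.12 with Tnfrsf12a.

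Other transcripts followed Tnfrsf12a more closely than any member did. The 5 tested genes with the highest r were Xirp1 (0.94), Enah (0.91), Foxs1 (0.90), Adcy6 (0.88) and Ccar1 (0.88). Xirp1 encodes an actin-binding protein of muscle, and Enah a regulator of actin filaments. Xirp1 was at 50.2, 22.6, 73.8 and 28.3 FPKM in T1 to T4 and at 21.6, 30.4, 17.5 and 19.3 FPKM in C1 to C4. E1 to E4 had 50.3, 36.8, 21.6 and 30.5 FPKM, and TE1 to TE4 had 48.0, 17.5, 26.2 and 16.6 FPKM. T3 was thus the highest library for both genes, and T1, E1 and TE1 were high for both. The r of Xirp1 with Tnfrsf12a was 0.91 without the 2 libraries farthest from the median of Tnfrsf12a. Xirp1 itself was not called between T and C (log2 fold change 1.00, edgeR's quasi-likelihood test, adjusted p = 0.220).

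For Eda2r the most alike genes were Psmd11 (r 0.86), Pik3ca (0.83), Prrc1 (0.83), Dnajb4 (0.82) and Rbm6 (0.82). Without T3 and TE1, the libraries farthest from the median of Eda2r, these values were 0.71, 0.49, 0.84, 0.71 and 0.57, so those of Pik3ca and Rbm6 rested in part on these mice. Psmd11, a subunit of the proteasome, was at 43.9 FPKM in T3 and 44.7 in TE1 and at 32.1 to 41.1 FPKM in the other libraries, so that the same mice stood highest. For Map3k14 they were Sema5b, Tor1b, Sav1, Rab1a and Mettl25, with r from 0.74 to 0.78, and from 0.60 to 0.72 without the farthest libraries TE1 and E2. For Nfkb2 they were Supt16, Chaf1b, Lmbr1l, Tapbpl and Birc5, with r from 0.76 to 0.81, and from 0.59 to 0.79 without TE1 and TE2. For Relb they were Unc13d (r 0.87), Epop, Gm46764, Gm36741 and Fam107b, and Unc13d was at 0.473 FPKM in TE4 and at most 0.213 elsewhere. No gene stands in 2 of these lists of 5, each of which was taken from all 14749 tested genes.

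**Figure D4:**
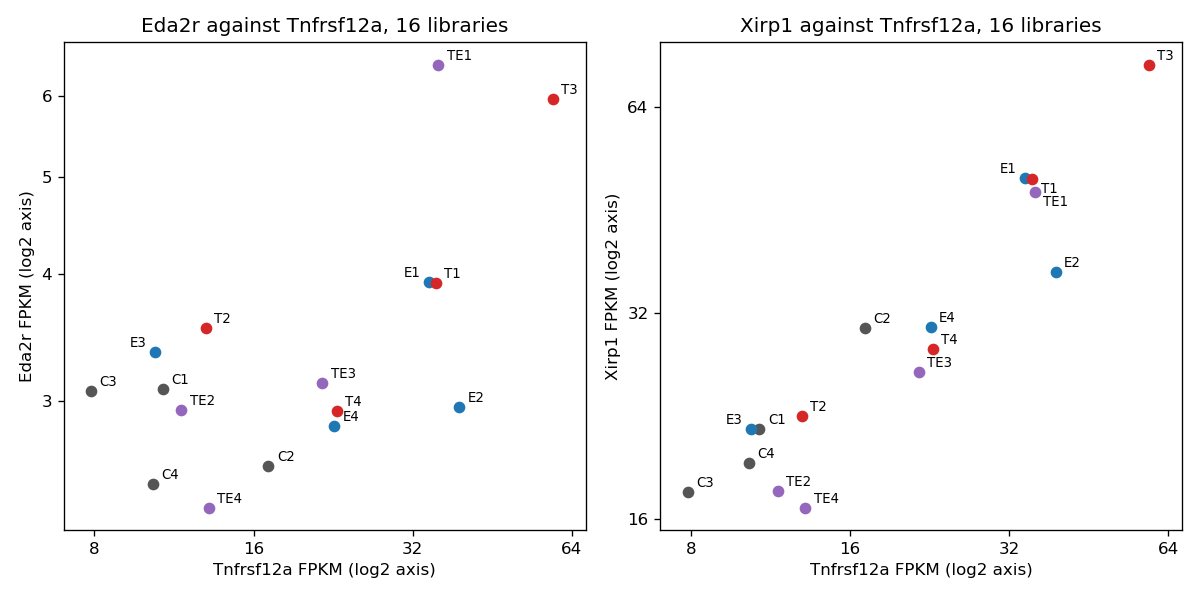
Eda2r (left) and Xirp1 (right) against Tnfrsf12a, in FPKM on log2 axes, with 1 labeled point for each of the 16 libraries. On the left TE1 and T3 stand above the other points, and on the right the points lie along a line from C3 to T3, with a Pearson r of 0.94.

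Further genes were taken from lists of 70 genes, of which 60 had enough counts. All are called pathway genes here, although some lists hold p53 targets, the oncostatin M axis and atrophy ligases in place of NF-κB genes. Between T and C, 1 of the 60 was called as higher and 0 as lower, beside 0.515% and 0.163% of all tested genes. At an unadjusted p under 0.05 in edgeR's quasi-likelihood test, 14 were higher and 4 lower, beside 14.2% of all tested genes in either direction. In FPKM, 6 of the 60 lay wholly higher in T than in C, beside 2.64% of all tested genes. These were Bcl3, Icam1, Sele, Osmr, Socs3 and Fbxo31. Wholly lower were 2 of the 60, beside 4.21%. The gene called was Osmr, from the oncostatin M list and not from a list of NF-κB genes. It encodes the receptor of oncostatin M, a cytokine tied to EDA2R signaling in muscle. Osmr was at 5.12, 4.49, 8.02 and 5.90 FPKM in T1 to T4 and at 2.53, 3.35, 3.13 and 2.52 FPKM in C1 to C4. Osmr was above the C range in every T mouse, as held for 2.64% of tested genes in this direction. It rose by 1.05 on the log2 scale (SE 0.15, edgeR's quasi-likelihood test, adjusted p = 0.00324). It also rose in TE against E, by 0.94 (adjusted p = 0.00698 with edgeR), as the 1 gene of the 60 called as higher there, beside 0.115% of all tested genes. Without TE4, C3 and E1 that change was 0.78 and was not called (adjusted p = 0.0969 with edgeR's quasi-likelihood test). Osm itself had too few counts to be tested.

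The ligand genes Eda and Tnfsf12 were not called with edgeR in any comparison, and their levels were below the C range in the T mice. Eda was at 0.518, 0.724, 0.823 and 0.836 FPKM in T1 to T4 and at 1.07, 0.926, 1.18 and 0.998 FPKM in C1 to C4. Tnfsf12 was at 2.92, 3.42, 2.99 and 4.14 FPKM in T1 to T4 and at 5.40, 5.28, 4.63 and 4.20 FPKM in C1 to C4. For both genes the T and C ranges did not overlap, and these were the 2 of 60 tested pathway genes that lay wholly lower in T, beside 4.21% of all tested genes. In TE and E the ranges overlapped for both, at 0.727 to 1.08 and 0.909 to 1.36 FPKM for Eda and at 3.06 to 4.26 and 3.05 to 4.58 FPKM for Tnfsf12. Between T and C the log2 fold changes were -0.50 for Eda (edgeR's quasi-likelihood test, adjusted p = 0.206) and -0.51 for Tnfsf12 (adjusted p = 0.122). DESeq2 gave an adjusted p of 0.0499 for Tnfsf12, the lowest over its alternatives, of which the highest was 0.326. Of 8 ligand genes, 5 were tested, and 4 of these had a fitted change below 0, with a median of -0.51 on the log2 scale between T and C, beside -0.0012 over all tested genes. Lta and Ltb, which lymphocytes express, were among the 4. The ligand median was 0.29 between TE and E, with 3 of 5 above 0, and -0.32 between E and C, with 3 of 5 below 0. Between TE and T all 5 were above 0, with a median of 0.36. Of these, 2 had an unadjusted p under 0.05 in edgeR's test, beside 5.88% of all tested genes. For the interaction all 5 were above 0, with a median of 0.42.

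Among the other receptors, Ltbr, the lymphotoxin β receptor, was at 7.76 to 9.62 FPKM in all 16 libraries. Tnfrsf1b, the TNF receptor 2 gene, had a log2 fold change of 0.65 between T and C (edgeR's quasi-likelihood test, adjusted p = 0.150). Tnfrsf13c, a receptor of B cells, was at 1.52 FPKM in TE4 and at most 0.282 elsewhere, which puts it with the B cell genes above. None of the 5 receptors tested, of 6 listed, was called in any comparison with edgeR, and the value of Tnfrsf1b depended on single mice. Between T and C its adjusted p in edgeR's test was 0.0132 without T2, while without T3 its log2 fold change was 0.41 and the adjusted p reached 0.446 over all alternatives. Tnfrsf1b was at 2.35 to 3.09 FPKM in TE and at 1.59 to 2.07 in E, which did not overlap, as held for 1.17% of tested genes in this direction (log2 fold change 0.54, adjusted p = 0.403 with edgeR).

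The 9 adaptor and brake genes, of which 8 were tested, and the 5 kinase genes, all tested, had medians of 0.01 and 0.03 on the log2 scale between T and C, and none was called with edgeR in any comparison. Traf3, which keeps NIK low, had a log2 fold change of 0.23 between E and C (edgeR's quasi-likelihood test, adjusted p = 0.469), and one of 0.15 without C1. Otud7b, a deubiquitinase that protects TRAF3, had one of 0.10 between TE and E (adjusted p = 0.654 with edgeR). Tbk1, a kinase related to the IKKs, had one of 0.24 between E and C, and its 4 E libraries lay above the C range, at 5.52 to 5.80 against 4.33 to 5.24 FPKM (adjusted p = 0.226 with edgeR). Ikbkg, the regulatory subunit of the IKK complex, had one of -0.14 between TE and E (adjusted p = 0.641 with edgeR). Of the 13 tested genes of both lists, Tbk1 between E and C was the one with ranges that did not overlap, which 6.28% of all tested genes showed in this direction.

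Bcl3, an atypical IκB protein that works with p50 and p52, was at 2.12, 1.28, 2.97 and 2.61 FPKM in T1 to T4 and at 0.882, 0.972, 0.760 and 0.538 FPKM in C1 to C4. Every T mouse was above every C mouse, as held for 2.64% of tested genes in this direction. The log2 fold change was 1.53 (SE 0.38, edgeR's quasi-likelihood test, adjusted p = 0.0740), so the change was not called, although DESeq2 gave an adjusted p of 0.00401. With edgeR the adjusted p for Bcl3 was 0.0339 without the filter on low counts, 0.0317 without T2 and 0.0138 without TE4, but it was 0.193 without T3 and 0.207 without C4, the highest over all alternatives. On log2(FPKM + 1) the change of Bcl3 was 0.84. Nfkbiz, a nuclear IκB protein, had a log2 fold change of 0.79 between TE and E (edgeR's quasi-likelihood test, adjusted p = 0.267). Of 10 genes in this list, 9 were tested and 0 called in any comparison.

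Several high values of target genes came from TE4. Of 5 lymphoid targets, 4 were tested, and Ccl21a was at 46.2 FPKM in TE4 and at 4.52 to 7.77 FPKM in the other TE mice. Cxcl12 had a log2 fold change of -0.28 between TE and E (edgeR's quasi-likelihood test, adjusted p = 0.405). Of 8 inflammatory targets, 7 were tested and 0 called in any comparison. Icam1 was at 3.34 to 5.79 FPKM in T, wholly above the 1.48 to 2.68 FPKM of C. It was at 2.41 to 12.3 FPKM in TE and at 2.53 to 3.17 FPKM in E, which overlapped. Sele, an adhesion molecule of activated endothelium, had 10 to 99 counts in T and 7 to 191 in TE, against 1 count in each C library and 0 to 7 in E. It was not called (adjusted p = 0.0741 between T and C and 0.114 between TE and E with edgeR's quasi-likelihood test). The TE vs E call depended on the processing. Sele was called there with DESeq2 (adjusted p = 0.0113) and with edgeR's quasi-likelihood test without the filter on low counts (adjusted p = 0.0391), and its log2 fold change of 4.68 was 2.78 without TE4 and 6.23 without E3, with an adjusted p of up to 0.592 over all alternatives. Ccl5, a chemokine of T cells, was at 12.1 FPKM in TE4 and at 0.358 to 0.565 FPKM in the other TE mice. Ccl21a and Ccl5 were thus high in TE4, while Sele was above every C library in all 8 tumor-bearing mice. Icam1 was above every C library in all T mice. Of all tested genes, 2.64% lay wholly higher in T than in C.

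Eda2r is also a target of p53, so the p53 list was read beside it. Of 10 genes, 9 were tested and 0 called in any comparison, with a median of 0.15 on the log2 scale between T and C. Cdkn1a, which encodes the cell cycle inhibitor p21, was at 9.46, 7.49, 29.9 and 13.9 FPKM in T1 to T4 and at 6.40, 7.80, 5.25 and 4.93 FPKM in C1 to C4. T3, which was high for Eda2r, was far above the others for Cdkn1a, and T2 lay within the C range. In E the level of Cdkn1a was 7.93 to 11.9 FPKM, wholly above C as 6.28% of tested genes were. In TE it was 10.9 to 19.4 FPKM, which is also above the C range. Between T and C the log2 fold change of Cdkn1a was 1.33 (SE 0.32, edgeR's quasi-likelihood test, adjusted p = 0.0662), and DESeq2 gave an adjusted p of 0.0173. With edgeR the adjusted p for Cdkn1a was 0.0176 without the filter on low counts and 0.0138 without T2. Without T3 the log2 fold change of Cdkn1a fell to 0.79, and the adjusted p reached 0.193 over all alternatives. Mdm2, which encodes the inhibitor of p53, had a log2 fold change of 0.16 between T and C (adjusted p = 0.243 with edgeR). Its level in E, 6.34 to 6.79 FPKM, also lay wholly above the 5.50 to 5.94 FPKM of C.

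Of the 5 atrophy ligase genes, all tested, 0 were called in any comparison. Fbxo32, which encodes atrogin-1, was at 59.7 to 189.5 FPKM in T and at 34.1 to 60.7 in C (log2 fold change 0.96, edgeR's quasi-likelihood test, adjusted p = 0.249). It was at 66.9 to 124 FPKM in E, wholly above C as 6.28% of tested genes were (log2 fold change 0.81, adjusted p = 0.338 with edgeR), and at 40.9 to 137 FPKM in TE. Trim63, which encodes MuRF1, was at 122 to 286 FPKM in T, 132 to 219.5 in E, 138 to 232 in TE and 124 to 146 in C (log2 fold change between T and C 0.42, adjusted p = 0.452 with edgeR). Fbxo30 had a log2 fold change of 0.33 between E and C (edgeR's quasi-likelihood test, adjusted p = 0.221), and Fbxo31 had one of 0.22 between T and C (adjusted p = 0.207 with edgeR). Myh3, the embryonic myosin of regenerating fibers, was at 11.6 FPKM in T4 and at most 1.27 FPKM in every other library.

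**Figure D5:**
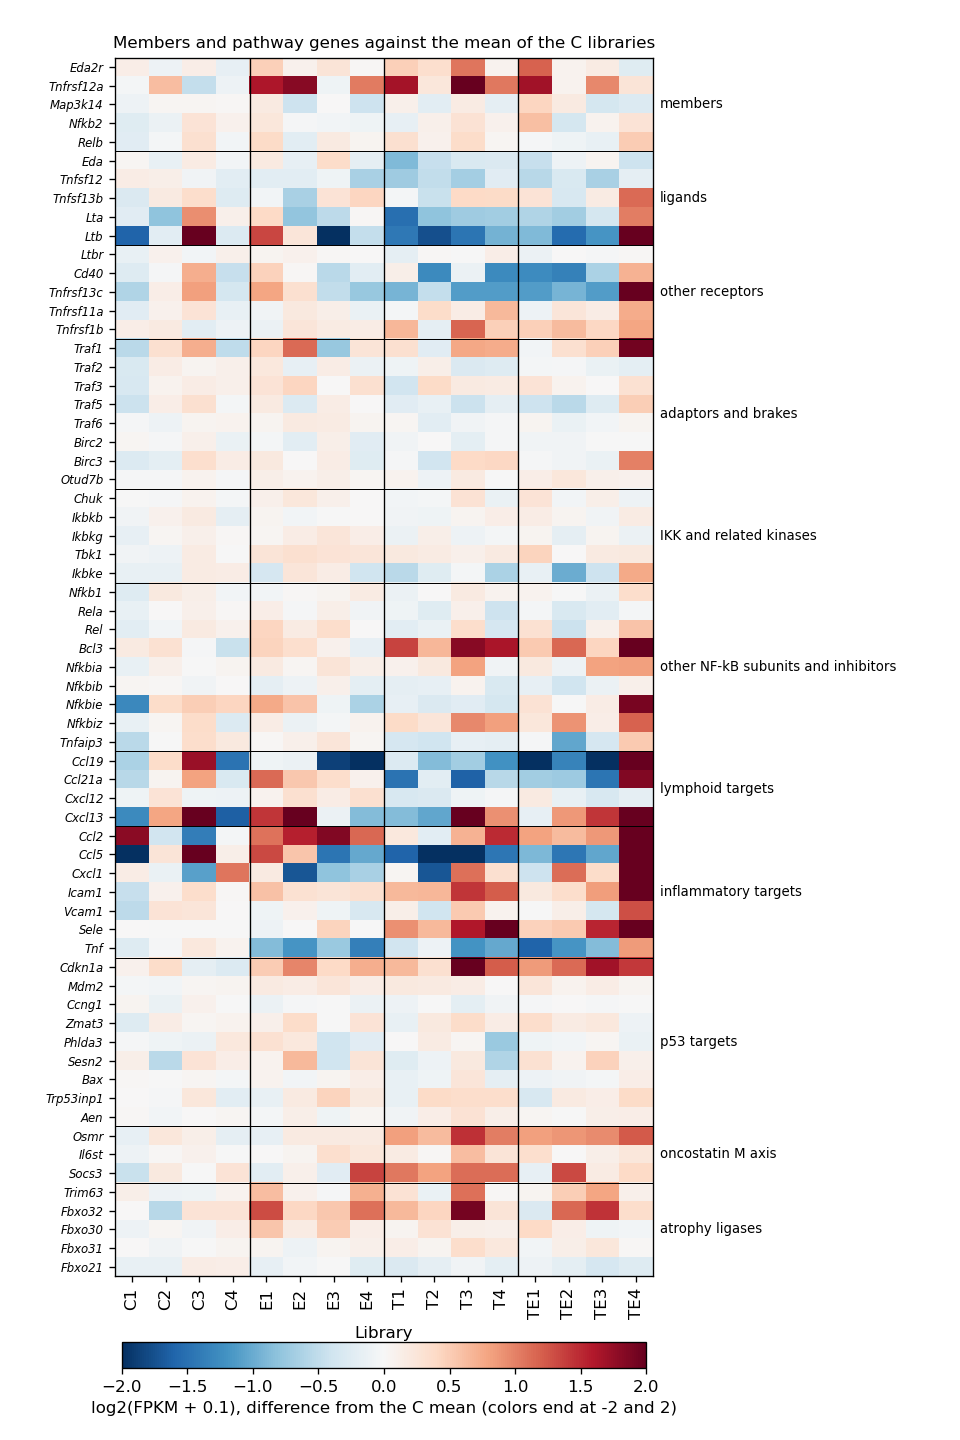
The 5 members and the 60 tested pathway genes (rows, grouped by list) in the 16 libraries (columns), as log2(FPKM + 0.1) minus the mean of the 4 C libraries, with red above it and blue below it. Osmr is above the C mean in all T and TE libraries, Eda and Tnfsf12 are below it in all T libraries, and the lymphocyte genes Ltb, Tnfrsf13c and Ccl5 are deep red in TE4.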

How the data were processed

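RNA sequencing of gastrocnemius muscle gave 16 libraries, 4 per group, and groups were taken from the labels. All libraries carry the same batch label. Per the submitters' processing notes, reads were trimmed with fastp 0.20.1, aligned to GRCm39 with HISAT2 2.1.0 and counted with HTSeq 0.11.2. The authors deposited raw counts per gene and FPKM values. The deposited FPKM values equal the counts divided by a gene length and the library total, as was checked for 11001 genes. Neither the strand setting nor the release of the annotation is given in the sources used here. The tables held 0 columns of other samples.

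Counts were tested with edgeR 4.0.16 in R 4.3.3. TMM factors, filterByExpr and glmQLFit with 1 coefficient per group over all 16 libraries were used, and contrasts were tested two-sided with glmQLFTest. P-values were adjusted by the Benjamini-Hochberg method over 14749 genes, and a gene was called at an adjusted p under 0.05. FPKM is given for levels. Correlations were taken on log2 CPM (TMM, prior count 2) and have no p. The pipeline was tested on simulated counts. Copies made by PCR were counted like other reads. No 2 libraries of a group agreed within sampling noise (chi-square per degree of freedom 13.0 to 63.3 over 24 pairs).

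The 5 members and the gene lists were chosen with earlier results of these data known. Named were the members, for each member the 5 genes with the highest r, and of each list the genes called in any comparison or otherwise the 2 with the smallest p. A few further genes (Glycam1, Hcfc1r1, Psd, Ltbr, Nfkbie, Birc3, Traf1, Fbxo32, Trim63, Myh3, Lta, Ltb, Icam1, Socs3) were named after their values were seen.

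Alternatives were DESeq2 1.42.0, RLE size factors, library totals alone, no filter on low counts, a block for the replicate number, only the groups compared, limma 3.58.1 (voom with sample weights, or log2 FPKM with a pseudocount of 0.1 or 1), each library left out, TE4, C3 and E1 left out, other thresholds, and, chosen after seeing the data, T3 and TE1 left out. Gene positions are from GENCODE (GRCm39), and the plots were made in Python 3.11.15 with matplotlib 3.10.9. Promoter windows of RefSeq cover 4 of the 5 members.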

Additional observations from a re-analysis of the deposited data

Results flagged for a closer look

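In 96 groups of 4 libraries, formed by the members and the named pathway genes, 11 FPKM values stood apart from the other 3 libraries of their group by Dixon's criterion. Chance meets this criterion in about 5% of independent groups of normal values. The groups here share libraries, and most of their genes were chosen by a small p, so the 11 cannot be weighed against that share. Of the members, Map3k14 was at 1.85 FPKM in C1 against 2.05 to 2.07 in the other C mice, and Relb was at 1.94 FPKM in TE4 against 1.19 to 1.31 in the other TE mice. TE4 also stood apart for Tnfrsf13c, at 1.52 FPKM against at most 0.0139, for Ccl21a, at 46.2 FPKM against 4.52 to 7.77, for Sele, at 1.29 FPKM against 0.0473 to 0.206, and for Ccl5, at 12.1 FPKM against 0.358 to 0.565. In the C group Traf3 was at 1.37 FPKM in C1 against 1.85 to 1.94, Otud7b at 8.20 FPKM in C3 against 7.63 to 7.70, and Cxcl12 at 34.7 FPKM in C2 against 26.8 to 27.1. In the E group Sele was at 0.0461 FPKM in E3 against at most 0.00685, and Osmr at 2.55 FPKM in E1 against 3.24 to 3.26. The part of the B cell transcripts of TE4 in its 5 values was not tested.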

How the results depend on the processing

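For the 5 members in 5 comparisons, 657 of 695 values under alternatives kept their direction and their side of the threshold, 37 changed sign and 1 passed the threshold (Tnfrsf12a between T and C without T replicate 2). Every value that changed sign belonged to an effect that was not called. Between T and C, Map3k14 (0.01 on the log2 scale) was -0.0217 with library totals alone, -6e-04 without a filter on low counts, -0.0017 with only the groups compared, -0.0328 with limma-voom, -0.029 and -0.0185 on log2(FPKM + 0.1) and log2(FPKM + 1), and -0.0517 without T3 and TE1. Between TE and E, Relb was -0.0322 with library totals alone, -0.0469 with limma-voom, -0.0391 and -0.0229 on the 2 FPKM scales and -0.0513 without TE4, C3 and E1, and Eda2r was -0.1555 without T3 and TE1. Between E and C, Nfkb2 was 0.0054 with library totals alone and 0.013 and 0.0062 on the FPKM scales. Between TE and T, Eda2r was 0.0273 and Ccl21a -0.0849 without TE4, C3 and E1, and Map3k14 was -0.0623 and Nfkb2 -0.0128 without T3 and TE1. The cause of these changes was not tested.

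With 1 library left out at a time, the log2 fold change ran, between T and C, from -0.0616 to 0.0647 for Map3k14. Between TE and E it ran from -0.1598 to 0.4136 for Eda2r and from -0.149 to 0.1193 for Relb. Between E and C it ran from -0.1087 to 0.0607 for Nfkb2 and from -0.0324 to 0.1893 for Relb. Between TE and T it ran from -0.5444 to 0.0699 for Eda2r, from -0.1204 to 0.1501 for Map3k14, from -0.0776 to 0.2424 for Nfkb2, from -1.5852 to 5.8744 for Tnfrsf13c and from -0.082 to 1.5047 for Ccl21a, where the fitted values of Tnfrsf13c rest on libraries near 0 counts. For the interaction it ran from -0.0471 to 0.2745 for Nfkb2.

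The number of genes called depended on the processing. Between T and C it was 100, and it was 423 with DESeq2, 62 with library totals alone, 174 without a filter, 30 with only the groups compared, 43 and 27 on the FPKM scales, 46 without TE4, C3 and E1, 32 without T3 and TE1, 42 with a 2-fold change as well, and 16 (without C4) to 255 (without T2) with 1 library left out. Between TE and E it was 34, and it was 179 with DESeq2, 69 without a filter, 96 with only the groups compared, 61 with limma-voom, 20 on log2(FPKM + 0.1), 16 without TE4, C3 and E1, 58 without T3 and TE1, 11 with a 2-fold change, and 18 to 69 with 1 library left out. Between E and C it was 13, and it was 257 with DESeq2, 21 with RLE factors, 45 without a filter, 183 with only the groups compared, 141 with limma-voom, 6 and 8 on the FPKM scales, 4 without TE4, C3 and E1, 106 without T3 and TE1, 7 with a 2-fold change, and 0 to 127 with 1 library left out. Between TE and T it was 0, and it was 7 with DESeq2, 3 without a filter and 0 to 2 with 1 library left out. For the interaction it was 0, and it was 20 with DESeq2 and 0 to 1 with 1 library left out. At an unadjusted p under 0.05 the 5 comparisons gave 2093, 1361, 2092, 867 and 1358 genes, and 2, 0, 1, 0 and 1 members. With 1 library left out, 0 to 1 members were called between T and C.

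The replicate numbers stand for different mice, and same-numbered libraries of 2 groups did not deviate together (mean r -0.01 over 24 pairs, 5 of them above 0.1). With the replicate block, 25 genes were called between E and C, and Map3k14 between T and C was -0.0095. Under the scalings tried, the median log2 fold change of all genes lay between -0.0458 and 0.0407. With 4 mice per group and a within-group SD of 0.77 on the log2 scale, the design resolves Tnfrsf12a less well than the other members.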
